A study of Bubalus bubalis with 12 samples.

Results

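The glucose transporter genes of the ruminal wall were described in Italian Mediterranean dairy buffaloes (Bubalus bubalis) fed with or without green feed. The members were the rows whose gene name equals SLC2A1, SLC2A3, SLC2A4, SLC2A8, SLC2A10, SLC2A12 or SLC5A1, and each name matched 1 row, which gave 7 of the 34037 genes listed. The control group was 6 buffaloes fed a total mixed ration (TMR), and the treated group was 6 buffaloes fed TMR in which green ryegrass made up about 30% of the diet. The trial lasted 60 days after 14 days of adaptation, and the buffaloes, already due for slaughter, were 8.2 ± 0.6 years old (the kind of error is not given in the sources used here). Total RNA from a frozen piece of rumen wall of each animal was sequenced as 1 stranded library, with no pooling of animals.

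Glucose crosses cell membranes through 2 families of carriers. The facilitative transporters (GLUT proteins, SLC2A genes) let glucose pass down its concentration gradient, while the sodium-glucose cotransporter SGLT1, encoded by SLC5A1, uses the sodium gradient kept up by the sodium-potassium pump to take glucose up against its own gradient. The rumen is lined by a keratinised stratified squamous epithelium, and most dietary carbohydrate is fermented by microbes in its lumen to short-chain fatty acids, which the epithelium absorbs and partly uses as fuel.

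Levels are given as FPKM, counted fragments divided by gene length and by the total of each library, a scale on which different genes can be compared. Between 10531541 and 12948372 reads per animal were counted on genes, and the steps between the FPKM of a gene gave the read number of each animal. The label of rumen wall was checked against markers of its squamous epithelium. Of the 11 epithelial marker genes, 10 were matched by symbol. Their summed level was 4227 ± 726 FPKM (SD, n = 6) in control and 4566 ± 830 FPKM (SD, n = 6) in treated buffaloes, and KRT5, a keratin of basal epithelial cells, was the most abundant at 1493 ± 566 FPKM (SD, n = 12). Skeletal muscle and erythroid markers were at or near 0, with summed levels of at most 2.08 and 0.722 FPKM in any animal.

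The members spanned more than 2 orders of magnitude. SLC5A1 (gene 102399087) had the highest mean, 54.1 ± 20.4 FPKM (SD, n = 12), and ranked 1079 of the 34037 genes by mean FPKM. SLC2A1 (gene 102392377), which encodes GLUT1, the carrier of basal glucose uptake in many cells, followed with 26.0 ± 4.61 FPKM (SD, n = 12). SLC2A3 (gene 102395356), which encodes the high-affinity carrier GLUT3 best known from neurons, came next with 6.15 ± 3.27 FPKM (SD, n = 12). These 3 genes stood in this order in all 12 animals, and together they held most of the summed level of the 7 members, of which SLC5A1 made up 59.4% ± 8.02 (SD, n = 12), SLC2A1 30.7% ± 7.32 (SD, n = 12) and SLC2A3 6.84% ± 2.77 (SD, n = 12).

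**Figure D1:**
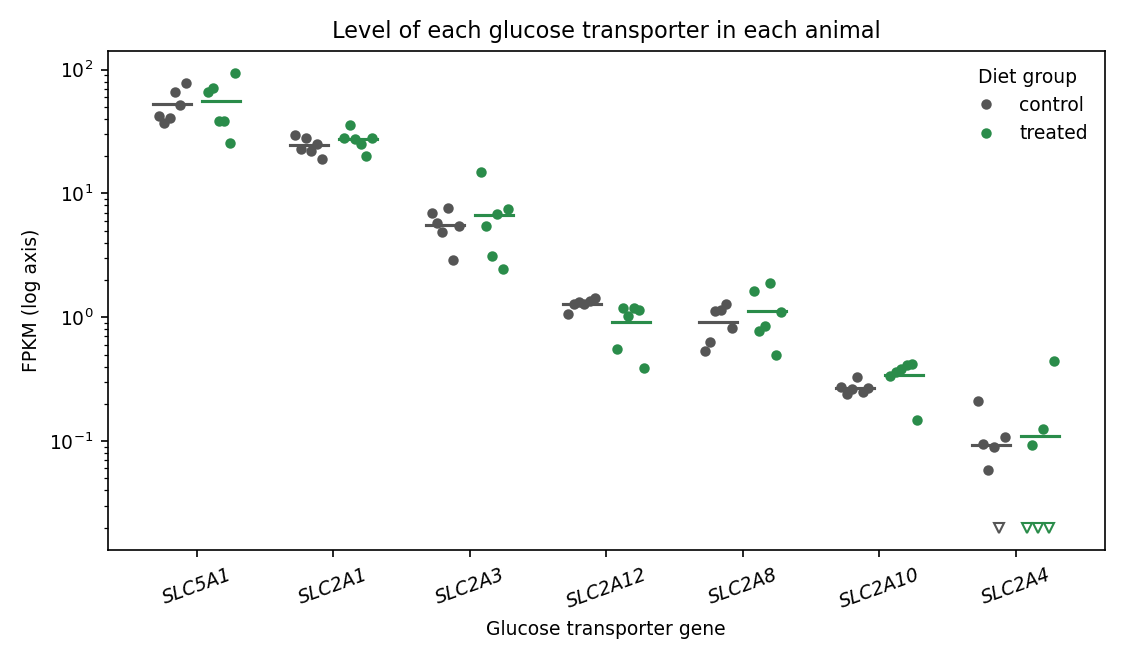
Level of each glucose transporter in FPKM (log axis) in 6 control and 6 treated animals, with 1 point per animal, a horizontal line at the group mean and open triangles at the bottom for animals with 0 reads. SLC5A1, SLC2A1 and SLC2A3 lay above the others in all 12 animals, and SLC2A4 had 0 reads in 4 animals.

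Below these lay SLC2A12 (gene 102407429) at 1.10 ± 0.320 FPKM and SLC2A8 (gene 102409472) at 1.02 ± 0.430 FPKM (SD, n = 12 for both). SLC2A10 (gene 102392494) had 0.306 ± 0.0793 FPKM (SD, n = 12), and SLC2A4 (gene 102410502) was the lowest at 0.101 ± 0.125 FPKM (SD, n = 12). The whole order of the 7 members was kept in 9 of 12 animals. The exceptions were treated replicates 1, 4 and 6, in which SLC2A8 exceeded SLC2A12, and in treated replicate 6 SLC2A4 also exceeded SLC2A12 and SLC2A10.

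Levels of members in the same animal were compared by a two-sided exact sign-flip permutation test on log2(FPKM + 0.01), and p-values were adjusted over the 21 pairs by Benjamini-Hochberg. In 20 of the 21 pairs the adjusted p-value was below 0.05. SLC5A1 exceeded SLC2A1 in 12 of 12 animals, by a geometric mean of 1.98 times (exact p = 0.000488, the smallest the test can give, adjusted p = 0.000570). The ratio of these neighbours varied between animals, from 1.28 in treated replicate 5 to 4.08 in control replicate 6. SLC2A1 exceeded SLC2A3 by 4.66 times (exact p = 0.000488, adjusted p = 0.000570), with ratios from 1.88 to 8.86. Over all 12 animals, the neighbours whose levels did not differ beyond the spread between animals were SLC2A12 and SLC2A8, with a geometric mean ratio of 1.10. SLC2A12 was higher in 9 of 12 animals (exact p = 0.610, adjusted p = 0.610), and SLC2A8 in treated replicates 1, 4 and 6. In the 6 control animals alone SLC2A12 was higher in each. All 21 pairs, this one included, then had an adjusted p-value below 0.05, against 18 in the 6 treated animals alone.

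The comparison of the diet groups asked whether green feed went with another level of glucose transporters in the wall. Of the 7 members, 5 passed the filter on low values (at least 42 scaled reads in at least 1 animal) and were tested with limma on log2(FPKM + 0.01) among 12619 genes. At a nominal limma p-value below 0.05 there were 0 of these 5 members, against 1.24% of all genes tested (157 of 12619). When the limma step was run on simulated data, 5.05% of the unchanged genes passed this threshold. The reason for the lower share in the animals was not tested. After Benjamini-Hochberg adjustment there were 0 members and 0% of all genes. With voom, limma on the reads worked out, 1 of the 5 members (SLC2A12) and 144 of all genes had a nominal p-value below 0.05, and 0 had an adjusted one. The groups of 6 did not overlap for 0 of the 5 members tested, against 0.0555% of all genes tested (7 of 12619). A log2 fold change gives the treated mean minus the control mean on that scale, which understates changes of genes with few reads, except that the size depends on the added 0.01 FPKM where animals had 0 reads. In a piece of tissue, fewer cells of a type and less RNA per cell cannot be told apart.

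SLC5A1, the sodium-coupled carrier, lay between 36.8 and 77.8 FPKM in the control group, with a median of 47.0, and between 25.8 and 93.3 FPKM in the treated group, with a median of 52.5. The groups overlapped widely, 4 of 6 treated animals lying inside the control range, with treated replicate 6 above it and treated replicate 5 below it. The means were 52.5 ± 16.3 FPKM (SD, n = 6) and 55.6 ± 25.4 FPKM (SD, n = 6), and the log2 fold change was 0.00 with a 95% interval from -0.63 to 0.63 (limma p = 0.992, exact permutation p = 0.989). The sign of so small a difference turned with the animals included, and the log2 fold change was -0.17 without treated replicate 6 and 0.20 without treated replicate 5.

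SLC2A1 had a lowest, median and highest level of 19.1, 23.9 and 29.9 FPKM in the control group and of 20.2, 27.8 and 35.6 FPKM in the treated group. Of the 6 treated animals, 5 lay inside the control range and treated replicate 2 lay above it. The means were 24.5 ± 4.05 FPKM (SD, n = 6) and 27.5 ± 5.02 FPKM (SD, n = 6), with a log2 fold change of 0.16 and a 95% interval from -0.15 to 0.47 (limma p = 0.289, exact permutation p = 0.297). The log2 fold change was 0.08 without treated replicate 2, 0.09 without control replicate 6 and 0.25 without treated replicate 5. Among the members it varied least between animals, with a coefficient of variation of 17.8% over all 12.

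SLC2A3 ranged from 2.88 to 7.60 FPKM in the control group, with a median of 5.60, and from 2.44 to 14.9 FPKM in the treated group, with a median of 6.15. The highest value was that of treated replicate 1, and 4 of 6 treated animals lay inside the control range. The log2 fold change was 0.07 with a 95% interval from -0.75 to 0.89 (limma p = 0.852, exact permutation p = 0.851), and it was -0.21 without treated replicate 1, -0.01 without treated replicate 6 and -0.11 without control replicate 5. Within groups, the SD of log2 values was 0.75 for SLC2A3 and 0.25 for SLC2A1, beside a median of 0.36 over the genes tested.

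SLC2A12 encodes GLUT12, a carrier related to the insulin-responsive GLUT4. Its level lay between 1.07 and 1.43 FPKM in the control group, with a median of 1.31, and between 0.388 and 1.19 FPKM in the treated group, with a median of 1.08. Treated replicates 1, 3 and 6 lay below every control animal, at 0.551, 1.02 and 0.388 FPKM, and the other 3 treated animals lay inside the control range. This overlap rested on control replicate 1 (1.07 FPKM), the lowest control animal. Without it all 6 treated animals lay below every control animal (exact permutation p = 0.0260). Control replicate 1 was singled out after its value was seen. How many of all genes separate when their most overlapping animal is left out was not computed, so the separation is no support for a difference. The values rest on 21 to 73 reads per animal. The means were 1.29 ± 0.123 FPKM (SD, n = 6) and 0.915 ± 0.354 FPKM (SD, n = 6), with a log2 fold change of -0.60 (SE 0.29) and a 95% interval from -1.23 to 0.02.

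The tests differed on SLC2A12. With limma the nominal p-value was 0.0582 and the adjusted one 1.00, while the two-sided exact permutation test gave p = 0.0216, where the smallest possible value is 0.00216. Nominal limma p-values of 0.0483 with a pseudocount of 1 FPKM, 0.0483 with median ratio scaling and 0.0440 with voom lay below 0.05, as did those without treated replicate 2 (0.0391), treated replicate 4 (0.0397) or treated replicate 5 (0.0431). The log2 fold change was -0.28 with the pseudocount of 1 FPKM, -0.61 with median ratio scaling and -0.60 with voom. The exact p-value was above 0.05 without control replicate 2 (0.0649), 3 (0.0736), 4 (0.0606), 5 (0.0866) or 6 (0.0887), with log2 fold changes from -0.61 to -0.57. It stayed below 0.05 with control replicate 1 or any 1 treated animal left out, and was 0.0238 without treated replicate 1 and 0.0238 without treated replicate 6. The size of the difference rested on treated replicates 1 and 6, since the log2 fold change was -0.38 without treated replicate 6 and -0.18 without both (exact p = 0.0762), the last being chosen after seeing the data. Treated replicates 1, 3 and 6, the animals below every control, also had the fewest genes above 0 of the 12 libraries (17922, 18074 and 17766, against 18227 to 18766 in the others), and treated replicate 6 had the lowest TMM factor (0.938). The part of these library features in the result was not tested.

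**Figure D2:**
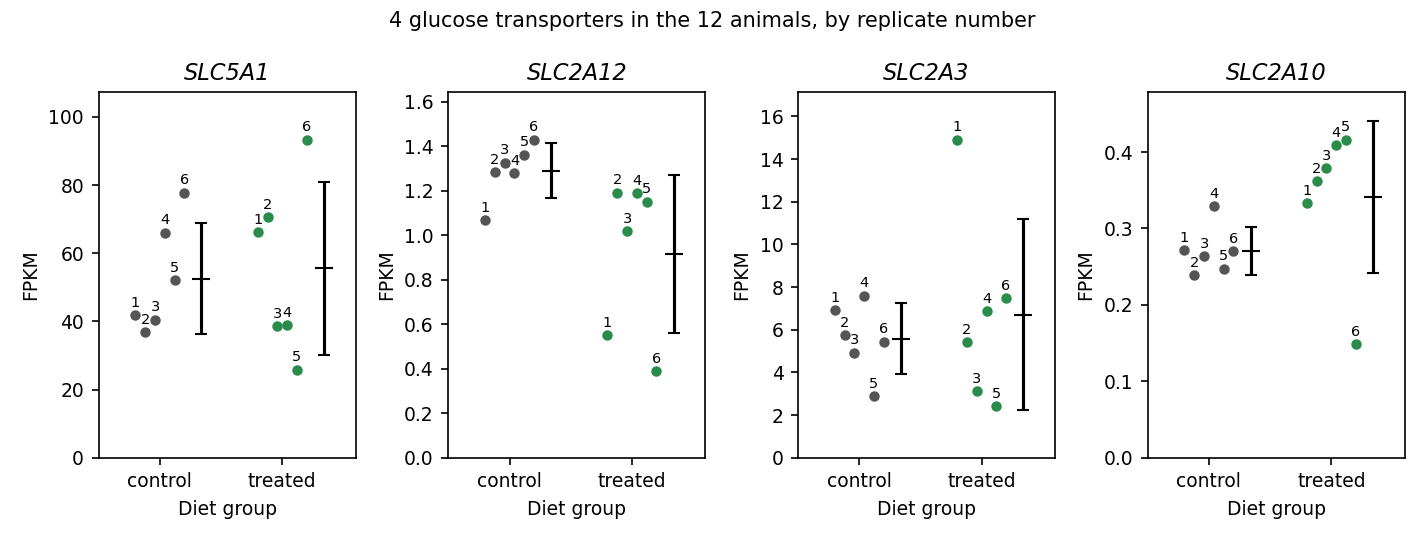
FPKM of SLC5A1, SLC2A12, SLC2A3 and SLC2A10 in the 6 control and 6 treated animals, with the replicate number above each point and the mean ± SD as the black bar to the right of each group. Treated replicate 6 had the highest SLC5A1 (93.3 FPKM) and the lowest SLC2A12 (0.388 FPKM) and SLC2A10 (0.149 FPKM).

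Markers of the muscle and connective tissue layers were summed in each animal. The smooth muscle sum lay below every control animal in treated replicates 1, 2, 3 and 6, and the fibroblast sum in treated replicates 1 and 2. For both lists the other treated animals lay inside the control range. All 9 smooth muscle markers were matched, and all 6 that were tested had lower means of log2 values in the treated group, with a median log2 fold change of -0.75, although SMTN had an FPKM mean of 13.4 in control and 13.5 in treated buffaloes. Of the 6, DES, named after its values were seen, passed the nominal limma threshold (limma p = 0.0271, exact permutation p = 0.0519). Of the 3 not tested with limma, CNN1 (means of 1.17 FPKM in control and 0.399 FPKM in treated buffaloes) and ACTG2 (0.851 and 0.307 FPKM), also named after their values were seen, each had an exact permutation p = 0.0238, while LMOD1 (0.555 and 0.345 FPKM) had an exact permutation p = 0.271. Their summed level was 50.4, 35.3, 41.4, 28.5, 33.7 and 36.9 FPKM in control replicates 1 to 6, and 23.8, 22.8, 24.9, 40.1, 38.3 and 15.4 FPKM in treated replicates 1 to 6. The most abundant was SMTN itself, 13.5 ± 5.04 FPKM (SD, n = 12), and no marker of this list was at 0 in all animals. All 7 fibroblast markers had lower means of log2 values in the treated group (median log2 fold change -0.59), with 0 nominal limma p-values below 0.05, and COL3A1 was the most abundant at 32.1 ± 22.4 FPKM (SD, n = 12). Their summed level was 101, 42.7, 263, 94.6, 78.3 and 206 FPKM in control replicates 1 to 6, and 18.2, 34.7, 69.3, 133, 107 and 179 FPKM in treated replicates 1 to 6. With the score of both lists as a covariate, the log2 fold change of SLC2A12 was -0.48, that of SLC5A1 -0.29, that of SLC2A3 -0.25, that of SLC2A1 0.06 and that of SLC2A8 0.20, with 0 of the 5 members past the nominal limma threshold.

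SLC2A4 encodes GLUT4, the insulin-responsive carrier of skeletal muscle and fat. It had 0 to 7 reads per animal in the control group and 0 to 15 reads in the treated group, too few to be tested with limma. The median was 0.0916 FPKM in the control group, with a highest value of 0.209, and 0.0467 FPKM in the treated group, with a highest value of 0.442 in treated replicate 6. In 9 of 12 animals it was at or under the floor of 3 reads, which is worth 0.0870 to 0.107 FPKM, so that its log2 difference of -0.81 (exact permutation p = 0.476), which rests on the added 0.01 FPKM, is not read as a fold. Of 7 skeletal muscle markers 4 were matched by symbol (not MYH1, MYH2 and MYH7), and these were near 0 as well. CKM was the most abundant at 0.718 ± 0.348 FPKM (SD, n = 12), with MYLPF at 0 in all animals. The adipocyte markers ADIPOQ and LEP were at 0 in all animals, while FABP4 had 85.7 ± 55.8 FPKM (SD, n = 12).

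SLC2A8 and SLC2A10 encode GLUT8 and GLUT10, carriers that reside mainly on membranes inside the cell. SLC2A8 ranged from 0.531 to 1.28 FPKM in the control group, with a median of 0.970, and from 0.496 to 1.89 FPKM in the treated group, with a median of 0.979. Treated replicates 1 and 4 lay above the control range and treated replicate 5 below it. Its log2 fold change was 0.22 with a 95% interval from -0.53 to 0.97 (limma p = 0.535, exact permutation p = 0.548), on 15 to 58 reads per animal. It passed the filter through the treated group only, with at most 41.8 scaled reads in a control and 57.5 in a treated animal, and with no filter the limma p-value over all genes above 0 was 0.558. The log2 fold change of SLC2A8 lay between 0.05 without treated replicate 4 and 0.43 without treated replicate 5, and was 0.08 without control replicate 1, 0.09 without treated replicate 1 and 0.02 without treated replicates 1 and 6.

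SLC2A10 ranged from 0.239 to 0.329 FPKM in the control group, with a median of 0.267, and from 0.149 to 0.416 FPKM in the treated group, with a median of 0.371. Of the 6 treated animals, 5 lay above every control animal, and treated replicate 6 lay below every control animal. With 10 to 26 reads per animal it was not tested with limma, and the exact permutation test of the difference of mean log2 values, 0.26, gave p = 0.301. Without treated replicate 6 the difference was 0.48 and the exact p-value 0.00433, so that the call turned on this animal.

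**Figure D3:**
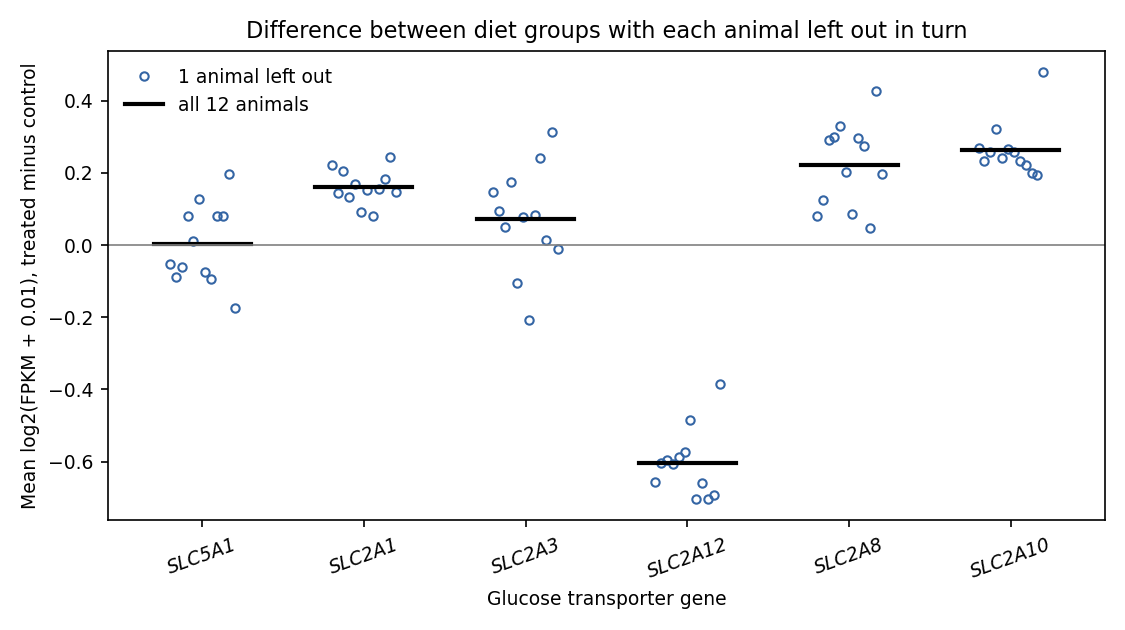
Difference of mean log2(FPKM + 0.01), treated minus control, for each glucose transporter except SLC2A4, which was mostly at the floor, with all 12 animals (black line) and with 1 animal left out in turn (open circles). The sign of SLC5A1 and SLC2A3 changed with the animal left out, while SLC2A12 stayed between -0.70 and -0.38 and SLC2A10 between 0.19 and 0.48.

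The other genes of glucose handling were described from lists, beside a median log2 fold change of 0.01 over all genes tested. Of 21 other glucose and hexose transporters, 18 were matched by symbol and 9 were tested, of which 0 rose and 0 fell at a nominal limma p-value below 0.05 (median log2 fold change 0.03). The most abundant were SLC37A3 with 43.7 ± 9.02 FPKM, SLC5A3, a sodium-coupled inositol carrier, with a mean of 12.9 FPKM, the sugar carrier SLC50A1 with 6.54 ± 1.79 FPKM and SLC37A1 with 4.18 ± 0.781 FPKM (SD, n = 12). SLC37A3, a sugar-phosphate exchanger family gene, thus lay between SLC5A1 and SLC2A1 in mean level. SLC37A1 had a log2 fold change of 0.32 (limma p = 0.0580, exact permutation p = 0.0238), and it passed the nominal limma threshold without control replicate 1 or control replicate 5. SLC37A2, named after its values were seen, had 0.194 ± 0.0869 FPKM (SD, n = 6) in control and 0.102 ± 0.0357 FPKM (SD, n = 6) in treated buffaloes, on at most 13 reads and not tested with limma (exact permutation p = 0.0173). SLC2A2, which encodes the liver and pancreas carrier GLUT2, and SLC5A2, which encodes the kidney carrier SGLT2, had at most 1 read in any animal.

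The sodium gradient that drives SGLT1 is kept by the sodium-potassium pump. Of 11 genes of this list, 10 were matched and 7 tested, with 0 past the nominal limma threshold in either direction and a median log2 fold change of 0.04. The pump subunit ATP1B3 had 261 ± 22.8 FPKM (SD, n = 6) in control and 271 ± 43.2 FPKM (SD, n = 6) in treated buffaloes. The pump modulator FXYD3 had 177 ± 52.6 and 180 ± 65.3 FPKM (SD, n = 6) in the same groups, and the sodium-proton exchanger SLC9A3 16.0 ± 7.30 and 17.1 ± 5.72 FPKM (SD, n = 6).

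Of 30 genes of hexose phosphorylation and glycolysis, which use the glucose taken up, 29 were matched and 20 tested, with 0 past the nominal limma threshold, 6 higher and 14 lower means of log2 values in the treated group, and a median log2 fold change of -0.05. GAPDH was the most abundant, with 420 ± 48.2 FPKM (SD, n = 6) in control and 424 ± 76.3 FPKM (SD, n = 6) in treated buffaloes, followed by PGAM1, ALDOA and TPI1, whose log2 fold changes were -0.08, -0.07 and -0.09. PFKFB1 was at 0 in all animals. Of 23 glycogen genes, 23 were matched and 18 tested, with 0 past the threshold and a median log2 fold change of 0.03, the most abundant being PGM2 and UGP2.

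Of 41 genes for traffic and regulation of glucose transporters, 40 were matched and tested, with 0 past the nominal limma threshold, 20 higher and 20 lower means of log2 values in the treated group, and a median log2 fold change of 0.00. TXNIP, whose product promotes the removal of GLUT1 from the cell surface, was the most abundant, with 140 ± 41.9 FPKM (SD, n = 6) in control and 110 ± 30.4 FPKM (SD, n = 6) in treated buffaloes. Its log2 fold change was -0.33 (limma p = 0.177 over 12619 genes, exact permutation p = 0.225). RAB10, a small GTPase of GLUT4 vesicles, had 74.0 ± 4.23 and 74.1 ± 7.46 FPKM (SD, n = 6), the kinase AKT1 61.5 ± 17.4 and 64.2 ± 12.6 FPKM (SD, n = 6), and ARRDC3 55.4 ± 11.1 and 54.1 ± 18.3 FPKM (SD, n = 6) in the same groups.

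Across animals, the members were compared in 21 pairs on log2(FPKM + 0.01) by permutation tests with 100000 resamples. Over all 12 animals, in 0 pairs was the p-value of Pearson's r or Spearman's rho below 0.05, nominal or Benjamini-Hochberg adjusted. The highest Pearson correlation was that of SLC2A3 with SLC5A1 (r = 0.54, permutation p = 0.0701, adjusted p = 0.433, rho = 0.48, p = 0.116, adjusted p = 0.695, n = 12), and r was 0.32 without the 2 animals farthest from the median of SLC5A1. SLC2A10 and SLC2A12 had r = 0.44 (permutation p = 0.150, adjusted p = 0.433, rho = -0.28, p = 0.380, adjusted p = 0.711, n = 12). This r was -0.31 without treated replicate 6 and -0.57 without the 2 animals farthest from the median of SLC2A12, treated replicates 1 and 6. With the group means removed, r was 0.81 over all animals (permutation p = 0.00396, adjusted p = 0.0832), 0.41 without treated replicate 6 (permutation p = 0.211) and -0.07 without the 2 farthest animals (permutation p = 0.834). SLC2A3 and SLC2A4 had r = 0.42 (permutation p = 0.183, adjusted p = 0.433, rho = 0.48, p = 0.114, adjusted p = 0.695, n = 12) and r = 0.93 without 2 animals (permutation p = 0.000550, adjusted p = 0.0115). These were control replicate 5 and treated replicate 1, 2 of the 4 animals with 0 reads of SLC2A4, which lie equally far from the median. The 2 were taken only by the order of the animals, and other choices among the 4 were not computed. Treated replicate 1 had the highest SLC2A3, and SLC2A4 rests on few reads. Without treated replicate 6, r was 0.37 (permutation p = 0.259). The r of 0.93 is therefore not read as a relation of the 2 genes.

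The members were also set against the mean log2 level of 9 marker lists, 63 relations in all. At a nominal permutation p-value below 0.05 there were 7 Pearson and 3 Spearman correlations, and 0 after adjustment over the 63. The highest was that of SLC2A1 with skeletal muscle markers (r = 0.70, permutation p = 0.0109, adjusted p = 0.427, rho = 0.67, p = 0.0199, adjusted p = 0.932, n = 12), with r = 0.53 without the 2 farthest animals and 0.79 with the group means removed (p = 0.00232, adjusted p = 0.146), though these markers were at or near 0. SLC5A1 and smooth muscle markers had r = -0.58 (permutation p = 0.0474, adjusted p = 0.427, rho = -0.38, p = 0.220, adjusted p = 0.990, n = 12), with r = -0.51 without the 2 farthest animals (p = 0.134) and -0.49 without treated replicate 6 (p = 0.134). With the group means removed it was -0.73 over all animals (permutation p = 0.00730, adjusted p = 0.230) and -0.72 without treated replicate 6 (permutation p = 0.0123, adjusted p = 0.385). SLC2A12 and smooth muscle markers had r = 0.58 (permutation p = 0.0438, adjusted p = 0.427, rho = 0.40, p = 0.202, adjusted p = 0.990, n = 12), with r = 0.76 without the 2 farthest animals (p = 0.0481, adjusted p = 0.686) and 0.47 without treated replicate 6 (p = 0.154). With the group means removed it was 0.36 over all animals (permutation p = 0.250) and 0.24 without treated replicate 6 (permutation p = 0.468). Without the 2 farthest animals it was then 0.68 (permutation p = 0.0346, adjusted p = 0.366). Within the groups, r of SLC2A12 with smooth muscle markers was -0.53 in control and 0.46 in treated animals. The other nominal Pearson relations concerned the genes with the fewest reads. SLC2A4 had r = 0.65 with endothelial markers (permutation p = 0.0238, adjusted p = 0.427, rho = 0.56, p = 0.0604, adjusted p = 0.952, r = 0.55 without the 2 farthest animals). With erythroid markers it had r = 0.58 (permutation p = 0.0211, adjusted p = 0.427, rho = 0.60, p = 0.0444, adjusted p = 0.932, r = 0.44 without the 2 farthest animals), and with epithelial markers r = -0.60 (permutation p = 0.0376, adjusted p = 0.427, rho = -0.45, p = 0.141, adjusted p = 0.990, r = -0.38 without them). SLC2A10 and epithelial markers had r = 0.61 (permutation p = 0.0376, adjusted p = 0.427, rho = 0.22, p = 0.483, adjusted p = 0.990), which was 0.04 without the 2 farthest animals and so rested on them. With the group means removed, its sign turned with the animals left out. It was then 0.61 over all animals (permutation p = 0.0613), -0.80 without the 2 farthest (permutation p = 0.00482, adjusted p = 0.152) and -0.56 without treated replicate 6 (permutation p = 0.0741). By Spearman's rho alone, SLC2A1 went with erythroid markers (rho = 0.60, permutation p = 0.0418, adjusted p = 0.932, r = 0.12, p = 0.716, adjusted p = 0.973, r = 0.66 without the 2 farthest animals). The part of cell make-up in the level of the members was not tested.

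For each member tested, the 3 genes most like it over the 12 animals, with group means removed, were taken from the 12619 genes tested, as a description without a test. For SLC5A1 these were RNASE7, which encodes an antimicrobial ribonuclease of epithelia (r = 0.97), the glycerol kinase gene GK (r = 0.96) and ERO1A, an oxidase of the endoplasmic reticulum (r = 0.96), at 1.11, 8.79 and 108 FPKM on average. For SLC2A1 they were SNAPC2 (r = 0.88), MAP3K9 (r = 0.88) and VEGFA, which encodes a vascular growth factor (r = 0.86). For SLC2A3 they were the kallikrein gene KLK12 (r = 0.90), LOC102412123 (r = 0.88) and CD83 (r = 0.88), and for SLC2A8 they were BICDL1 (r = 0.85), MTMR2 (r = 0.84) and LOC112584724 (r = 0.84). For SLC2A12 they were KCTD10 (r = 0.89), LOC102415134 (r = 0.89) and LOC112583818 (r = 0.89), but rank correlations with it were 0.59, 0.28 and -0.05.

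The remaining marker lists described the wall further. Endothelial markers, 8 of 8 matched, were led by PECAM1 at 7.55 ± 3.80 FPKM (SD, n = 12) with a median log2 fold change of -0.11, and immune markers, 9 of 9 matched, by LCP1 at 10.2 ± 3.21 FPKM (SD, n = 12) with a median of -0.08. Of 7 neuron and glia markers 6 were matched, led by S100B at 6.63 ± 3.30 FPKM (SD, n = 12), with SOX10 and ELAVL4 at 0 in all animals. Of 5 erythroid markers 4 were matched, with AHSP the most abundant at 0.348 ± 0.206 FPKM (SD, n = 12) and ALAS2, SLC4A1 and HBM at 0 in all animals.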

How the data were processed

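Rumen wall RNA of 6 control and 6 treated buffaloes was analysed, grouped by the sample labels. Per the submitters' processing notes and the study's methods, reads were trimmed with Trimmomatic 0.39, aligned with STAR 2.5.2b to UOA_WB_1 and counted by strand with featureCounts 2.0.0, keeping mapping qualities from 30 upwards. The deposited FPKM values were made by the authors from these counts, and the tool behind them is not given in the sources used here. The table holds 4 more columns that match no sample description, which were not used here.

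The members, gene lists and marker lists were chosen with earlier results of these data known. Reads were worked out from the steps between FPKM values within a gene (tolerance 0.001 reads), and gene lengths came out whole, within 0.02 bases, for 22472 of 22972 genes above 0 (97.8%). TMM factors were computed from these reads. Genes that reached 42 TMM-scaled reads in any animal entered limma 3.58.1 in R 4.3.3 (lmFit, eBayes with a trend) on log2(FPKM + 0.01), without a block, and p-values were adjusted by Benjamini-Hochberg over 12619 genes. Single members were tested by two-sided exact permutation over 924 assignments. The floor was 3 reads in an animal, which like every read number covers counting error only. Intervals are 95% limma intervals. The limma step was tested on simulated data. Python 3.11.15, numpy 2.4.6, scipy 1.17.1, pandas 2.3.3 and matplotlib 3.10.9 were used.

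Genes named are the 7 members, the 3 genes most like each tested member, from each gene list those with a nominal limma p-value below 0.05 and the 4 with the highest mean, and from each marker list the highest gene and those at 0 in all animals. Genes outside this rule (DES, CNN1, ACTG2, LMOD1, SLC2A2, SLC5A2, SLC37A2, PFKFB1 and genes named beside the alternatives) were chosen after their values were seen. Some genes that the rule takes are not reported here. Alternatives were other pseudocounts, filters and scalings, robust eBayes, voom on the reads, the replicate number as a block, a smooth muscle and fibroblast score as covariate, and each animal left out. Leaving out treated replicates 1 and 6 together, and treated replicate 6 from the correlations, and leaving animals out with group means removed, was chosen after seeing the data. No sequences or coordinates are given, as no genome was used here.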

Additional observations from a re-analysis of the deposited data

Results flagged for a closer look

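In 3 of the 14 groups of 6 animals, 1 per member and diet, the highest or lowest animal lay far from the nearest other one for the range of the group. By chance about 1 in 20 groups would do so. SLC2A4 had 0.442 FPKM in treated replicate 6, the highest of that group, from 15 reads (ratio of gap to range 0.719). SLC2A10 had 0.329 FPKM in control replicate 4, the highest of that group (ratio 0.634), and 0.149 FPKM in treated replicate 6, the lowest of that group (ratio 0.689). Treated replicate 6 was thus an extreme animal for both genes. With it left out the difference of SLC2A10 between the groups was 0.48 on the log2 scale (exact permutation p = 0.00433), while SLC2A4 then had an exact permutation p = 0.173. The animal left out was picked by its SLC2A10 value, so the p-value of SLC2A10 is no support for a difference.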

How the results depend on the processing

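The count of nominal limma p-values below 0.05 was 157 as reported, and 562 of 22972 with no filter, 301 of 16450 at 0.1 FPKM in at least 6 animals, 321 with the replicate number as a block, 314 with the smooth muscle and fibroblast score as covariate, 257 without treated replicates 1 and 6, and 142 to 324 with 1 animal left out, 324 without treated replicate 6. The cause was not tested. The adjusted count was 0 under every one of these and the other limma alternatives, among them voom with 144 nominal genes. The block rests on numbers that name different animals. Same-numbered animals correlated by 0.09, 0.21, 0.39, 0.19, -0.01 and 0.41, and unlike numbers by -0.04 on average. The mean of each gene in each group was removed first. That step largely fixes the mean for unlike numbers from the same-number values, so it is no independent baseline. Of the 6, 4 correlated best with their own number, a hint from the data and not the design. The numbers are those of the sample descriptions, and same-numbered animals carry different numbers in the sample titles. The numbers were not taken as pairs, since they name different animals and not every correlation was above 0.1. With the block, 0 members and 0 list genes had a nominal p-value below 0.05.

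Of the 5 members tested, 0 had a nominal limma p-value below 0.05, beside 157 of 12619 genes. With a pseudocount of 1 FPKM it was 1 (SLC2A12), beside 160 of 12619 genes. It was also 1 with median ratio scaling (beside 155) and 1 with voom (beside 144). With an animal left out 0 to 1 members passed, beside 142 to 324 genes. The sources of these changes were not tested. SLC2A12 kept its direction in all 24 limma settings, from -0.70 to -0.18. Of 94 list genes 0 passed. With no filter 2 of 116 list genes passed, PHKG1 and FXYD1, neither of which was among the 94. Of the 94, 2 passed without treated replicates 1 and 6 (SLC37A3, SLC5A9), and 0 to 5 with an animal left out. These were SLC37A1 without control replicate 1 (beside 170 of 12619 genes) and SLC37A1 and SLC45A4 without control replicate 5 (beside 168). Without treated replicate 6 it was MLXIPL (beside 324). Without control replicate 6 they were TXNIP, GBE1, SLC5A9, GYG1 and TPI1, beside 200 of 12619 genes. SLC2A3 reversed to -0.25 with the covariate and to -0.38 without treated replicates 1 and 6, and lay between -0.21 and 0.31 with an animal left out. SLC5A1 reversed to -0.29 with the covariate, -0.31 without treated replicates 1 and 6 and -0.00 (-0.0016) with median ratio scaling, and lay between -0.17 and 0.20 with an animal left out. The log2 difference of SLC2A4, mostly at the floor, reversed from -0.81 to 0.012 with a pseudocount of 1 FPKM and was -0.11 with 0.1 FPKM. The order of all members was kept in 8 or 9 animals with an animal left out. Of the 21 pairs, 21 had an adjusted p-value below 0.05 in the control animals alone and 18 in the treated animals alone. Of 84 correlations, 1 passed adjustment without the 2 farthest animals, with or without group means removed, and 0 in the other settings. It was that of SLC2A3 with SLC2A4, for which the 2 animals were taken by order among 4 equally far ones.

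Depth limits what can be said of SLC2A4, SLC2A10, SLC2A8 and SLC2A12, which had at most 15, 26, 58 and 73 reads in an animal. With 6 animals a group, the 95% intervals of SLC2A3 and SLC5A1 allow changes of up to 0.89 and 0.63 on the log2 scale, so that a p-value above the threshold does not show equal levels. Read numbers were worked out from FPKM. Transporters not matched by symbol (SLC2A5, SLC2A7 and SLC5A4) were not analysed here.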

Other observations

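Treated replicate 6 combined the highest SLC5A1 (93.3 FPKM) and SLC2A4 (0.442 FPKM) of the 12 animals with the lowest SLC2A12 (0.388 FPKM) and SLC2A10 (0.149 FPKM). It also had the lowest summed level of smooth muscle markers (15.4 FPKM). Treated replicate 1, with the next lowest SLC2A12 (0.551 FPKM), had the highest SLC2A3 (14.9 FPKM), the highest summed level of epithelial markers (5634 FPKM) and the lowest of fibroblast markers (18.2 FPKM). The part of tissue make-up in these values was not tested.

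The summed level of the 7 transporters ranged from 50.5 FPKM in treated replicate 5 to 131 FPKM in treated replicate 6. It lay between 67.7 and 105 FPKM in the control group and between 50.5 and 131 FPKM in the treated group, and no test was run on it.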
